A study of Mus musculus with 6 samples.

Results

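The 36 genes described here act in G2 phase and mitosis: the cyclins and kinases that start mitosis, the spindle checkpoint, the kinetochore, the spindle with its kinesin motors, the cytokinesis machinery and proteins that shape the chromosomes. They were chosen by name, with earlier results of these data known. Each symbol was found once among the 41388 genes of the count table. All 36 passed the filter on low counts that left 15186 genes for testing. Polyadenylated RNA came from primary fibro-adipogenic progenitors (FAPs), stromal cells of muscle that give rise to fibroblasts and to fat cells, taken from the muscle of wild-type male mice whose age is not given in the sources used here. Both groups grew in the same medium with serum and human FGF, a mitogen. Cells of the PGE2 group received prostaglandin E2, a lipid mediator, at 500 nM once a day for 2 days, and cells of the vehicle group received the carrier. There were 3 libraries per group, and no label ties them to separate animals or cultures. The p-values below therefore measure spread between libraries that may be technical replicates.

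Most of these genes are silent in resting cells and are switched on late in the cycle. In G1 their promoters are held off by the DREAM complex of retinoblastoma-like proteins, E2F4 and the MuvB core, and later MuvB pairs with B-MYB and FOXM1 and activates them, acting at a short sequence called the cell cycle genes homology region (CHR), while NF-Y binds nearby CCAAT boxes. They are widely used as markers of proliferation. In bulk RNA, fewer dividing cells and less of each transcript per dividing cell cannot be told apart.

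Totals ran from 21006044 counts in vehicle library 2 to 52730962 in PGE2 library 2, and 3 counts were worth between 0.0582 and 0.142 CPM (a library's counts scaled to a common total). The fewest counts of a member in a library were 108 (Cdc25c in vehicle library 2) and the most 7543 (Top2a in vehicle library 1), so counting error was small beside the spread between libraries. The culture carried the progenitor markers: Pdgfra, Ly6a, Cd34, Thy1, Dcn and the rest of a list of 10 summed to between 10318 and 17823 CPM per library. Of the listed markers of other cells, only Ptprc (leukocytes) and Sox10 (Schwann cells) were at 0 in every library. The rest had counts, so other cells are not shown to be absent. Per library, mural markers summed to between 582 and 695 CPM and myogenic markers to between 32.3 and 305 CPM. Most of the mural sum was Pdgfrb, at 512 to 596 CPM. No other mural marker exceeded 58.8 CPM in a library (Notch3 in vehicle library 2). Macrophage markers summed to between 9.80 and 13.2 CPM and Schwann cell markers to between 4.24 and 8.09 CPM.

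Levels of these genes varied widely between libraries of the same group. Replicate 1 stood apart in both groups: for all 36 genes, vehicle library 1 and PGE2 library 1 were the 2 highest of the 6 libraries, an order held by 12.9% of all tested genes. Summed over the 36 genes, levels were 2194, 1124 and 1138 CPM with vehicle (libraries 1 to 3) and 1758, 1044 and 785 CPM with PGE2. Vehicle library 1 exceeded vehicle library 2 by a median of 2.00-fold, from 1.38-fold for Smc4 to 2.39-fold for Ccnb1, and PGE2 library 1 exceeded PGE2 library 3 by a median of 2.44-fold, from 1.38-fold for Smc4 to 3.17-fold for Cenpa. Over all tested genes these medians were 0.991 and 0.993. Vehicle library 1 was the highest for 30 genes (22% of all tested genes) and PGE2 library 1 for the other 6 (15.4%), Ccnb2, Cdk1, Birc5, Mad2l1, Cenpa and Ube2c. PGE2 library 3 was the lowest of the 6 for 35 genes, against 16.4% of all tested genes, and vehicle library 2 was the lowest for the other, Cdk1. The median coefficient of variation between libraries of a group was 42.9% with vehicle and 46.9% with PGE2 for the 36 genes, and 11.5% and 9.25% for all tested genes.

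**Figure D1:**
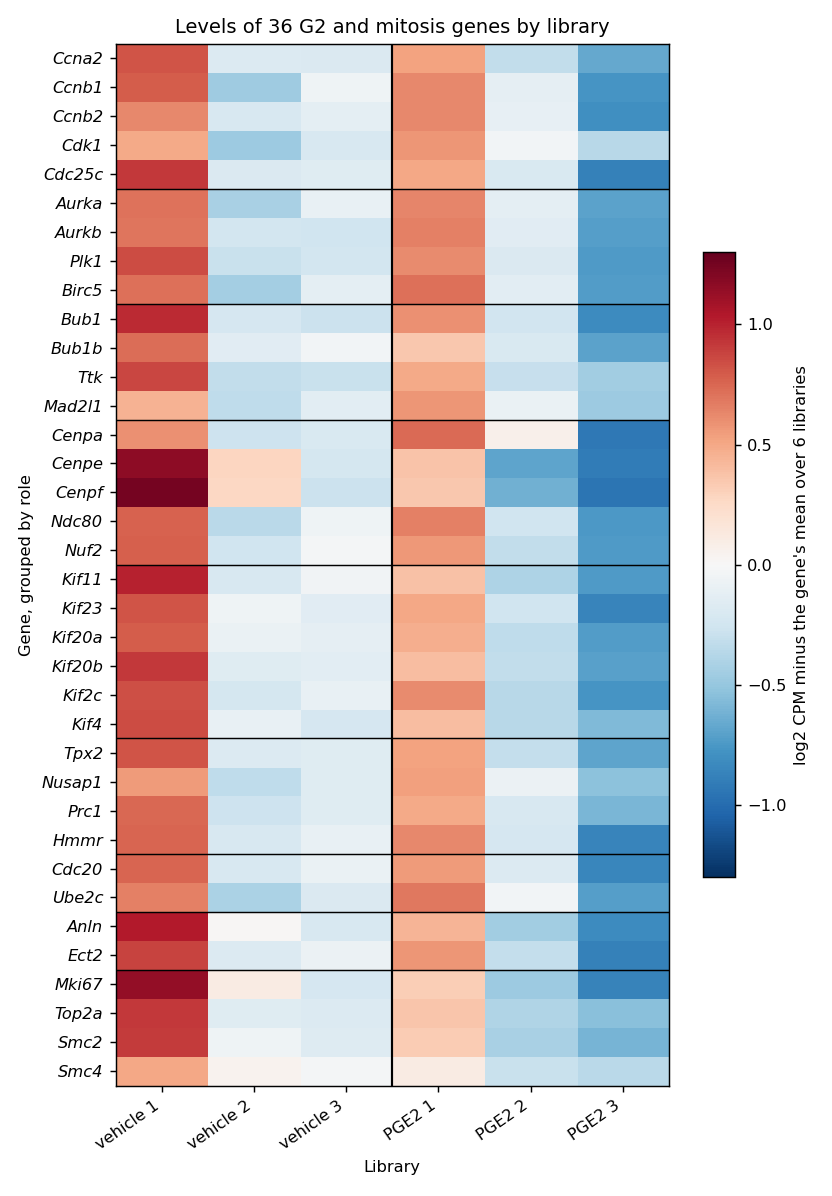
Level of each of the 36 genes (rows, grouped by role) in each library (columns), as log2 CPM minus the gene's mean over the 6 libraries; black horizontal lines separate the roles. Vehicle 1 and PGE2 1 are the 2 highest columns in every row, and PGE2 3 is the lowest in 35 of 36 rows.

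The genes were examined for the sequence elements named above, because mitosis genes share such regulatory sequence. Whether these elements bear on the differences between libraries was not tested. RefSeq promoter windows of GRCm38.p6, from 250 bases before to 50 after the start, matched 30 of the 36 genes; Ccna2, Cdc25c, Aurkb, Kif20a, Tpx2 and Smc4 had none. The CHR core TTTGAA was present on either strand in 23 of the 30 genes (76.7%), against 20.2% of the 27025 genes of the table, and CCAAT on either strand in 22 (73.3%) against 41.1%. Both occurred in 19 genes (63.3%) against 8.97%. The 5 windows below show how the 2 elements sit around the start, in 3 genes that fell in the paired comparison described further on (Cenpf, Kif11, Kif23) and in 2 that did not pass the test (Cdk1, Ube2c). Each runs 5′ to 3′ on the gene's strand from 100 bases before the start to 30 after it, and capitals mark TTTGAA or CCAAT, or their reverse complements TTCAAA and ATTGG.
Cenpf: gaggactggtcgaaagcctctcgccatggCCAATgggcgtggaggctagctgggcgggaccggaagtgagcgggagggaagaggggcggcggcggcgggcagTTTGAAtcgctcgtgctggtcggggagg
Kif11: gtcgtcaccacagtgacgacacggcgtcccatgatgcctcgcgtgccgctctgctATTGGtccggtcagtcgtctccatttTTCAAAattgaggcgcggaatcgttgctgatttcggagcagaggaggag
Kif23: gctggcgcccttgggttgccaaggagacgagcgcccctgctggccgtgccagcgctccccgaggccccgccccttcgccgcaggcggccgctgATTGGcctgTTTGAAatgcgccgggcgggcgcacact
Cdk1: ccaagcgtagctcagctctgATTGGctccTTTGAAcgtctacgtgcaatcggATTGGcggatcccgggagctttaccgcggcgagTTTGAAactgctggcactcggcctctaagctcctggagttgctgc
Ube2c: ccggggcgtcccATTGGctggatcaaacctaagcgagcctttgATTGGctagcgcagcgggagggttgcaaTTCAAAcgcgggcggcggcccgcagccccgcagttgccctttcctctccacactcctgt
Their positions are chr1:189688057-189688186 (minus strand) for Cenpf, chr19:37376282-37376411 (plus strand) for Kif11, chr9:61946770-61946899 (minus strand) for Kif23, chr10:69352883-69353012 (minus strand) for Cdk1, chr2:164769829-164769958 (plus strand) for Ube2c. In Cenpf and Kif23 TTTGAA began at position 3, counting the first transcribed base as 1. In Kif11 and Ube2c it was on the opposite strand, from -19 to -14 and from -29 to -24. Cdk1 held it at -71 and again at -15, with opposite-strand CCAAT at -80 and -48. TTTGAA was found in 11 of the 12 genes with a window that fell in the paired comparison and in 12 of the 18 others, so most genes of both kinds held it. A match is a run of letters and not a measured binding site.

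The treatment comparison asked whether PGE2 changed these genes. Without regard to replicate numbers, none of the 36 passed the test (edgeR quasi-likelihood, Benjamini-Hochberg over 15186 genes, threshold 0.05), where 0.342% of all tested genes passed. None reached an unadjusted p under 0.05, as 20.1% of all tested genes did. DESeq2, which passed 6.04% of the genes it tested, also called none of the 36 and had 1 at an unadjusted p under 0.05; limma-voom, which passed 0.0856%, had 0 of either kind. The smallest adjusted p by edgeR was 0.309, for Smc4. For no member did the 3 PGE2 libraries lie wholly below or above the 3 vehicle libraries, whereas 25.9% of all tested genes had groups that did not overlap. Fitted log2 fold changes, PGE2 over vehicle, were below 0 for 33 of the 36, with a median of -0.30 against -0.0010 over all tested genes. The median depended on which library was left out. Without vehicle library 1 the median was 0.10 and 27 of 36 were above 0, and without PGE2 library 1 it was -0.72 and all 36 were below 0. It was -0.47 and -0.46 without vehicle libraries 2 and 3, and -0.19 and -0.054 without PGE2 libraries 2 and 3.

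Compared within same-numbered libraries, 16 of the 36 genes were called lower under PGE2 and the other 20 did not pass. No label states that same-numbered libraries are pairs. They were taken as pairs by a rule stated in the processing section, which rests on correlations in these same data. By those correlations PGE2 library 2 was closer to vehicle library 3 (0.252) than to vehicle library 2 (0.169). With the number as a block, called here the paired fit, the 16 made up 44.4% of the genes and 0 rose (edgeR, same threshold). Of all tested genes, 7.51% fell and 6.91% rose in that fit. On simulated data the share of false calls in this fit was above the threshold, so its adjusted p-values, above all those just under 0.05, are less certain. Simulated pair effects were drawn separately for each gene, whereas all 36 genes were high together in replicate 1, so the simulation does not cover that pattern. The median log2 fold change was -0.32, with Cenpf lowest at -0.82 and Cdk1 highest at 0.12. The PGE2 library was lower than its vehicle library in all 3 pairs for 21 genes (58.3%), as it was for 25.5% of all tested genes, and 0 were higher in all 3, against 26.6%. The pairs were unequal: the median difference over the 36 genes was -0.29 in pair 1, -0.036 in pair 2 and -0.61 in pair 3, with 30, 21 and 36 genes lower. With pair 1 left out 9 genes fell, namely Cenpe, Cenpf, Kif11, Kif23, Kif20a, Anln, Ect2, Mki67 and Smc2. Without pair 2, 23 fell and 0 rose, and without pair 3, 17 fell and Cdk1 and Cenpa rose, where 4.67%, 4.38% and 17.7% of tested genes fell without pairs 1, 2 and 3 and 15.6% rose without pair 3. The 9 passed in each of these.

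**Figure D2:**
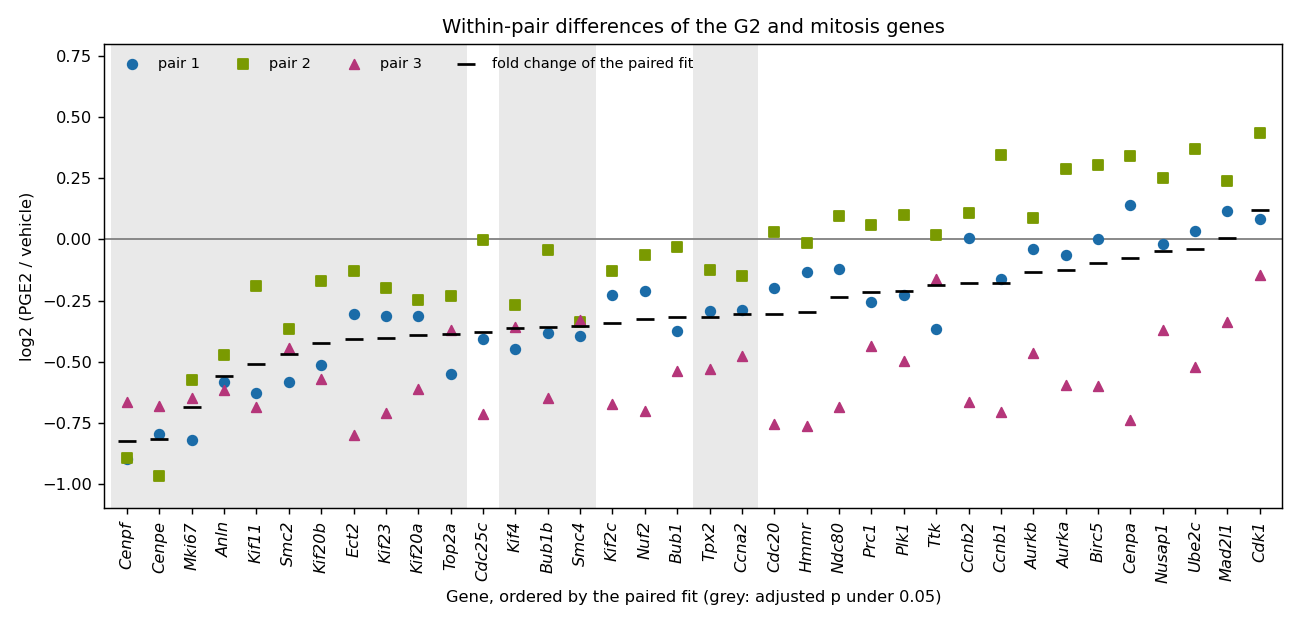
Difference between the PGE2 and the vehicle library of the same number (log2 ratio of CPM) for each gene in pairs 1 to 3, with the fitted fold change as a bar; genes are ordered by that fit, and grey marks the 16 with an adjusted p under 0.05. Every pair 3 point lies below 0, while 15 genes lie above 0 in pair 2.

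Genes of chromosome structure fell as a whole, 4 of 4, and all 4 also fell with the length correction described further on. Calls in other roles shifted with that correction, as given for each. Mki67, which encodes the Ki-67 protein that coats mitotic chromosomes and marks dividing cells, is on chromosome 7 from 135689784 to 135716361 (mm10). It stood at 112, 54.8 and 43.7 CPM in vehicle libraries 1, 2 and 3 and at 63.6, 36.8 and 27.9 CPM in PGE2 libraries 1, 2 and 3. Each PGE2 library was below its own vehicle library, but PGE2 library 1 was above vehicle libraries 2 and 3. The paired log2 fold change was -0.68 ± 0.079 (SE; adjusted p = 0.000519). Top2a, the topoisomerase that untangles sister chromatids, read 175, 83.1 and 82.3 CPM with vehicle and 119.9, 70.8 and 63.7 CPM with PGE2 in libraries 1 to 3, a change of -0.39 ± 0.079 (adjusted p = 0.0113). Smc2 and Smc4 are the condensin subunits that fold chromosomes for mitosis. Smc4 varied less between libraries than any other member, with a coefficient of variation of 20.8% with vehicle. It stood at 133, 97.0 and 92.6 CPM with vehicle and 101, 76.7 and 73.7 CPM with PGE2, and its differences in pairs 1 to 3 were -0.40, -0.34 and -0.33. Smc4 fell by 0.36 and Smc2 by 0.47 on the log2 scale (adjusted p = 0.00839 and 0.00431), and Smc4 was the member nearest to passing without pairing.

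Centromere and kinetochore genes held the 2 largest falls and also members that did not pass. Cenpf (ENSMUSG00000026605, chromosome 1 at 189640606 to 189688086), a large coiled-coil protein of the outer kinetochore, stood at 40.8, 20.7 and 14.1 CPM in vehicle libraries 1, 2 and 3 and at 21.9, 11.1 and 8.89 CPM in PGE2 libraries 1, 2 and 3. The pairs differed by -0.90, -0.89 and -0.67, and the paired change was -0.82 ± 0.091 (adjusted p = 0.000421), a fold of 0.565. Cenpe, the kinesin that brings chromosomes to the spindle equator, read 53.5, 29.0 and 20.4 CPM with vehicle and 30.8, 14.8 and 12.7 CPM with PGE2 and changed by -0.81 ± 0.087 (adjusted p = 0.00034). Ndc80 and Nuf2 form the rod that grips microtubules, and their paired values of -0.23 ± 0.13 and -0.32 ± 0.12 did not pass. Cenpa, the histone H3 variant that marks centromeres, stood at 42.4, 23.2 and 24.5 CPM with vehicle and 46.7, 29.4 and 14.7 CPM with PGE2. It was higher in pairs 1 and 2 and lower in pair 3, where PGE2 library 3 was at its lowest, and the paired value was -0.075 ± 0.21 (adjusted p = 0.847).

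**Figure D3:**
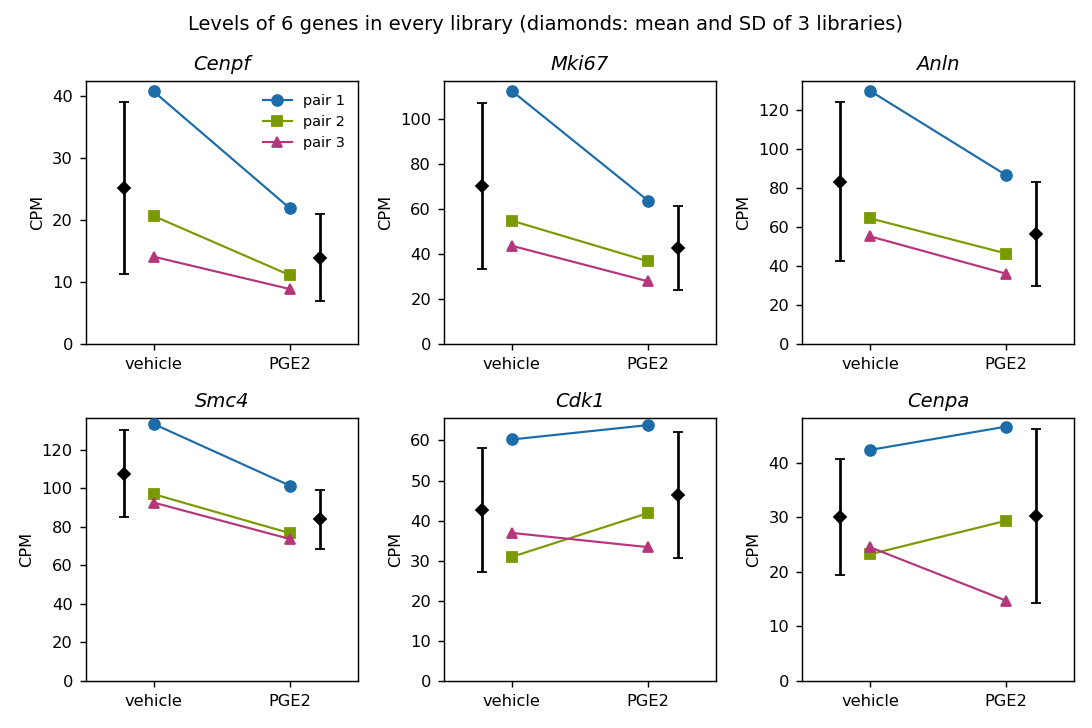
CPM of 6 genes in every library; lines join libraries of the same number, and diamonds give the mean with its SD over 3 libraries. Cenpf, Mki67, Anln and Smc4 slope down in all 3 pairs while their group means overlap within the SD, and Cdk1 and Cenpa slope up in pairs 1 and 2.

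Of the 6 kinesin motors 5 fell, and 5 also with the length correction, with Kif2c in place of Kif20b. Kif11, which pushes spindle poles apart, stood at 53.4, 23.0 and 25.8 CPM with vehicle and 34.6, 20.2 and 16.0 CPM with PGE2. The group means, 34.1 ± 16.8 and 23.6 ± 9.74 CPM (SD, n = 3), overlapped within their SD, and its paired change was -0.51 ± 0.10 (adjusted p = 0.0107). Kif20a and Kif23, motors of the midzone that the dividing cell pinches through, changed by -0.39 ± 0.085 and -0.40 ± 0.10. Kif20a stood at 110.2, 60.2 and 58.9 CPM with vehicle and 88.6, 50.8 and 38.6 CPM with PGE2, the highest of the motors also per length, and Kif23 at 41.9, 22.9 and 21.6 CPM with vehicle and 33.8, 19.9 and 13.2 CPM with PGE2. In both, PGE2 library 3 was the lowest and vehicle library 1 the highest. Kif4, the chromosome-bound motor, and Kif20b changed by -0.36 ± 0.085 and -0.42 ± 0.10. Kif2c, which takes microtubules apart at centromeres, was lower in all 3 pairs but did not pass, at -0.34 ± 0.11 (adjusted p = 0.0583). Exons of Kif20a and Kif4, like those of Ccna2, overlap a gene on the other strand (Cdc23, Pdzd11 and Exosc9), and whether the counting used strand is not given in the sources used here.

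Both cytokinesis genes fell, and with the length correction only Anln did. Anln encodes anillin, a scaffold of the contractile ring, and stood at 129.7, 64.5 and 55.2 CPM in vehicle libraries 1, 2 and 3 and at 86.5, 46.4 and 36.1 CPM in PGE2 libraries 1, 2 and 3. Its differences in pairs 1 to 3 were -0.58, -0.47 and -0.62 and the paired change was -0.56 ± 0.073 (adjusted p = 0.00104). Ect2, the exchange factor that switches on RhoA at the ring, stood at 35.3, 16.9 and 18.2 CPM with vehicle and 28.5, 15.5 and 10.4 CPM with PGE2 and changed by -0.41 ± 0.12 (adjusted p = 0.0463). Of the 4 spindle and midzone proteins, Tpx2, which activates Aurora A on the spindle, fell by 0.32 ± 0.087. With the length correction 0 of these 4 fell. The microtubule bundler Prc1, the hyaluronan-mediated motility receptor Hmmr and Nusap1 did not pass, at -0.21, -0.30 and -0.049.

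Of the 5 genes of mitotic entry 1 fell in the paired fit, and with the length correction 2 did, Ccna2 and Cdc25c. Ccna2, cyclin A2, which acts in S phase and G2, fell by 0.30 ± 0.084 (adjusted p = 0.0375), with levels of 74.7, 37.5 and 37.3 CPM with vehicle and 61.1, 33.9 and 26.8 CPM with PGE2. The mitotic cyclins Ccnb1 and Ccnb2 had paired values of -0.18 ± 0.19 and -0.18 ± 0.14 and did not pass. Ccnb1 stood at 70.4, 29.5 and 39.2 CPM with vehicle and 62.9, 37.5 and 24.0 CPM with PGE2, so it was higher in pair 2 and lower in pairs 1 and 3. Cdk1, the kinase that these cyclins activate, stood at 60.2, 31.0 and 36.9 CPM in vehicle libraries 1, 2 and 3 and at 63.8, 41.9 and 33.4 CPM in PGE2 libraries 1, 2 and 3. It was the member with the highest fold change, 0.12 ± 0.10, which did not pass (adjusted p = 0.465), and its paired differences were 0.084, 0.44 and -0.15. Cdc25c, the phosphatase that releases Cdk1 from inhibition, stood at 7.11 ± 3.37 CPM with vehicle and 5.52 ± 2.58 CPM with PGE2, and did not pass (adjusted p = 0.109).

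None of the 4 mitotic kinase and passenger complex genes passed in the paired fit, while with the length correction 1 of them, Plk1, fell. Plk1, which drives centrosome maturation and mitotic entry, stood at 60.5, 27.5 and 28.6 CPM with vehicle and 51.7, 29.5 and 20.2 CPM with PGE2, a paired value of -0.21 ± 0.11. Aurka, the kinase of the spindle poles, had a paired value of -0.13 ± 0.15. Aurkb and its partner Birc5 (survivin), both of the chromosomal passenger complex that corrects faulty attachments, had -0.13 ± 0.11 and -0.098 ± 0.15. Among 4 spindle checkpoint genes, Bub1b, which encodes BubR1 of the complex that delays anaphase, fell by 0.36 ± 0.11 (adjusted p = 0.047), and its pairs differed by -0.38, -0.042 and -0.65. Bub1 (adjusted p = 0.0684), the kinase Ttk and Mad2l1 did not pass. With the length correction Bub1 fell and Bub1b did not pass. Mad2l1, whose protein holds back anaphase, had a paired value of 0.0070 ± 0.11 and stood at 44.0, 25.7 and 29.2 CPM with vehicle and 47.7, 30.3 and 23.1 CPM with PGE2. Neither partner of the anaphase promoting complex passed: its activator Cdc20 had -0.30 ± 0.13 and its ubiquitin-conjugating enzyme Ube2c -0.039 ± 0.15. Ube2c stood at 47.6, 22.8 and 26.4 CPM with vehicle and 48.7, 29.4 and 18.4 CPM with PGE2 and Cdc20 at 88.6, 45.4 and 49.2 CPM with vehicle and 77.2, 46.4 and 29.2 CPM with PGE2. For both, the PGE2 library was higher than its vehicle library in pair 2 and lower in pair 3.

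Levels per kilobase use the longest annotated transcript, which may not be the one expressed, so different genes compare only roughly. On that scale Cdc20 was highest in vehicle libraries at 34.1 CPM per kilobase, followed by Smc4 (24.9), Ccnb2 (24.7) and Top2a (21.8). Cenpf (2.26) and Cdc25c (2.70) were lowest. These are means over 3 libraries, and their spread was wide: in CPM, Cdc20 had a mean of 61.1 ± 23.9 (SD, n = 3).

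The size of the change went with transcript length. The rank correlation of the paired fold change with length was -0.56 over the 36 genes and -0.41 over 15098 tested genes with a length; genes share libraries and are not replicates, so this is a description. Within pairs it was -0.55, -0.62 and 0.13 over the 36 genes and -0.47, -0.43 and -0.030 over all tested genes, so pair 3, with the lowest median difference, did not show it. The 16 that fell had a median length of 4712 bases and the other 20 of 3102.5 bases, and the largest falls were in the long transcripts of Cenpf (11130 bases), Mki67 (10061) and Cenpe (7910). When a length trend per library was removed, the paired fit again had 16 of 36 lower and 0 higher, where 7.97% of all tested genes fell and 8.82% rose, and the median was -0.30. The 2 sets shared 12 genes. Bub1b, Kif20b, Tpx2 and Ect2 no longer passed (adjusted p = 0.069, 0.0505, 0.0501 and 0.0939), and Cdc25c, Plk1, Bub1 and Kif2c now did. Cenpf moved from -0.82 to -0.56, Mki67 from -0.68 to -0.45 and Cenpe from -0.81 to -0.61, and each still fell.

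**Figure D4:**
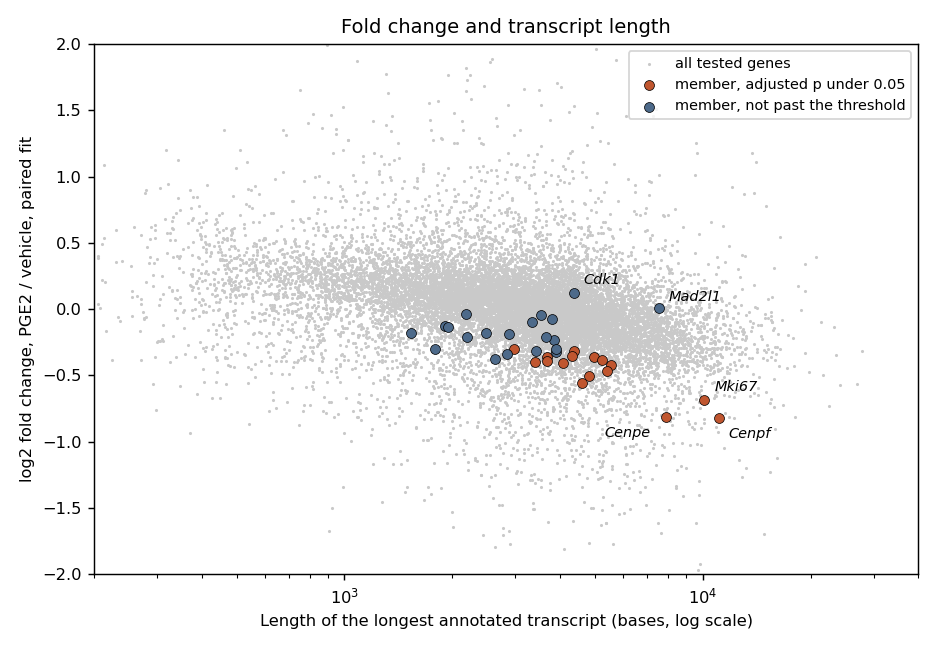
Paired log2 fold change against the length of the longest annotated transcript (log scale) for all tested genes (grey; points beyond the axes are not drawn) and the 36 genes (orange with an adjusted p under 0.05, blue otherwise). Orange points lie at 2965 bases or longer, and Mad2l1, at 7557 bases, lies near 0.

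Other lists of cycle genes were also chosen with earlier results of these data known. They are read against the 7.51% of all tested genes that fell and the 6.91% that rose in the paired fit. Of 63 further mitosis genes 0 passed unblocked by edgeR, and 17 fell and 0 rose in the paired fit, with a median of -0.20. Aspm, a spindle pole protein, was at 30.5, 17.0 and 11.9 CPM with vehicle and 16.6, 9.75 and 5.87 CPM with PGE2 and fell by 0.90 ± 0.095, and Ckap5, a microtubule polymerase, fell by 0.38, while the checkpoint gene Bub3 had a value of 0.18 (adjusted p = 0.133). With the length correction Bub3 passed as higher (0.21, adjusted p = 0.0348). Of 37 S phase genes 7 fell and 1 rose, with a median of -0.075 and pair medians of -0.23, 0.11 and -0.089. The replicative polymerase subunit Pola1 fell by 0.77 ± 0.10 and Dut, which removes dUTP, rose by 0.35 ± 0.079. Cohesin genes, which hold sister chromatids together and also act outside mitosis, had 4 of 11 lower, among them Smc1a (-0.38) and Stag2 (-0.35). Core subunits and regulators of the anaphase promoting complex, expressed throughout the cycle, had 0 of 17 lower and 2 higher, Anapc13 (0.43) and Anapc16 (0.32). Of 7 regulators of entry into mitosis, the checkpoint kinase gene Atr fell (-0.44); with the length correction Atr did not pass (-0.24, adjusted p = 0.055) and Wee1, which holds Cdk1 inactive, fell (-0.34, adjusted p = 0.0303). Of 23 transcriptional regulators of the cycle 1 fell, the mitosis activator Foxm1, and 0 rose. With the length correction the numbers lower and higher were 19 and 1 for the further mitosis genes, 9 and 2 for S phase, 2 and 0 for cohesin, 1 and 3 for the anaphase promoting complex and 1 and 1 for the transcriptional regulators. The calls of 1 of 7, 1 of 23 and 2 of 17 are near the shares over all tested genes. These 4 last lists and the S phase list had 0 genes past the threshold without pairing; over the whole table that fit passed 52 genes and had 3049 at an unadjusted p under 0.05.

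Some other lists were also highest in replicate 1 of both groups, with the remaining libraries in another order. Geometric means of the S phase genes were 30.6, 18.1 and 20.1 CPM with vehicle (libraries 1 to 3) and 26.7, 19.3 and 18.6 CPM with PGE2. The markers of myogenic cells, which the culture could also hold, were highest in replicate 1 as well: their geometric mean over the 10 tested of 12 was 20.9, 6.12 and 4.58 CPM with vehicle (libraries 1 to 3) and 14.8, 1.92 and 1.87 CPM with PGE2, and their sum ran from 32.3 to 305 CPM. Myod1, which drives muscle determination, stood at 5.72, 1.42 and 0.901 CPM with vehicle and 2.80, 0.349 and 0.326 CPM with PGE2. In the paired fit 6 of these 10 fell and 0 rose (3 fell with the length correction), with pair medians of -0.47, -1.57 and -1.36, and 0 passed without pairing. Over all tested genes 7.51% fell and 6.91% rose in the paired fit, or 7.97% and 8.82% with the length correction. None of the 12 was at 0 in every library. Their part in the result for the mitosis genes was not tested. The geometric mean of the progenitor markers was lowest in replicate 1 of both groups, at 131, 166 and 214 CPM with vehicle (libraries 1 to 3) and 151, 195 and 237 CPM with PGE2. Single markers differed: Cd34 (242, 187 and 159 CPM with vehicle and 174, 114 and 105 CPM with PGE2) and Thy1 (322, 240.2 and 254 CPM with vehicle and 491, 444 and 416 CPM with PGE2) were highest in replicate 1 of both groups. The paired fit had Ly6a, Thy1 and Pi16 higher and Cd34 and Lum lower. Of other cell types, it had 3 of 7 mural, 1 of 4 endothelial, 2 of 3 Schwann and 1 of 4 tendon cell markers lower among those tested. It had 2 of 4 macrophage markers higher. With the length correction 1 mural marker was lower and 1 macrophage marker higher. These lists hold 3 to 7 tested genes, too few to read such counts closely against the shares over all tested genes. By geometric mean the mural list was slightly highest in replicate 1 of both groups, at 14.4, 14.0 and 10.6 CPM with vehicle (libraries 1 to 3) and 11.7, 11.3 and 10.3 CPM with PGE2. By sum it was not, at 681, 695 and 600 CPM with vehicle and 599, 582 and 652 CPM with PGE2. Of the 7 mural markers, 2 were highest in vehicle library 1. By geometric mean the endothelial, macrophage, Schwann and tendon cell lists were not highest in replicate 1 of both groups. The part of the mural markers was not tested either. Pdgfrb alone supplied between 512 and 596 CPM of the mural sum. Sums were between 19.0 and 47.0 CPM for endothelial, 9.80 and 13.2 CPM for macrophage, 4.24 and 8.09 CPM for Schwann and 10.8 and 25.6 CPM for tendon cell markers.

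**Figure D5:**
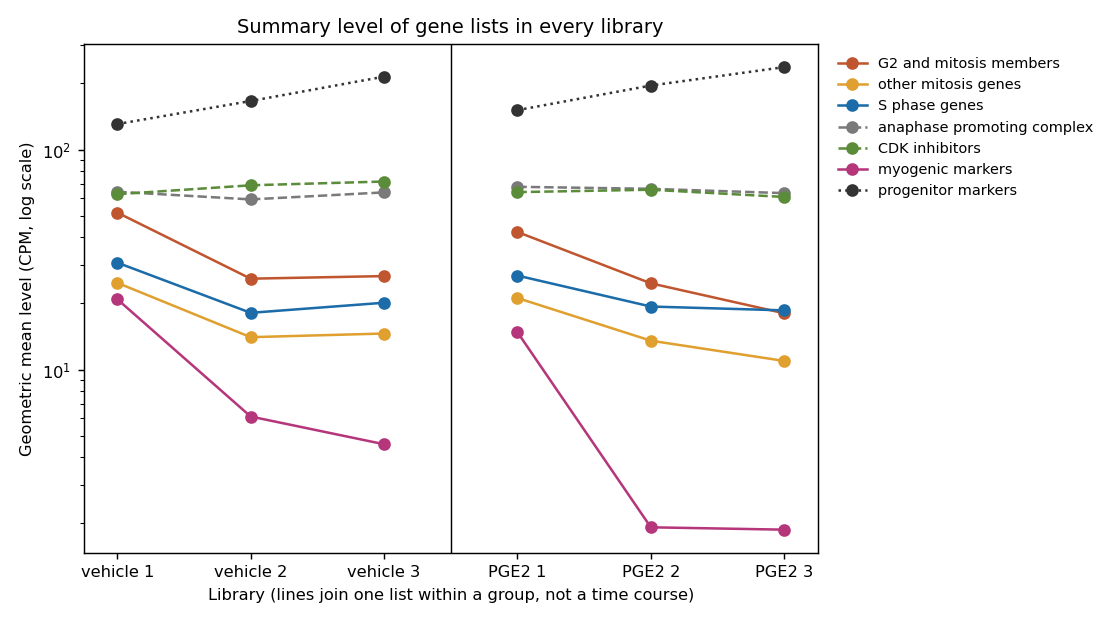
Geometric mean CPM (log scale) of the tested genes of 7 lists in each library; lines join one list within a group. The mitosis, S phase and myogenic lists peak in replicate 1 of both groups, the progenitor list is lowest there, and the anaphase promoting complex and CDK inhibitor lists stay between 59.3 and 71.5 CPM.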

How the data were processed

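Values are whole-number read counts for each gene and library, used as the authors deposited them. Per the submitters' processing notes the build is mm10; for aligner, counter, annotation release and strand setting, the entry is "not given in the sources used here". Exons of 10 of the 36 genes overlap another gene in the GENCODE M21 annotation of that assembly, 9 of them on the opposite strand, so their values are less certain. The 9 are Ccna2 (with Exosc9), Kif20a (Cdc23), Kif4 (Pdzd11), Cdc20 (Elovl1), Ube2c (Tnnc2), Nusap1, Prc1, Plk1 and Cdc25c. Counts were tested with edgeR 4.0.16 in R 4.3.3: filterByExpr, scaling by trimmed mean of M values, and a robust quasi-likelihood test of PGE2 against vehicle with Benjamini-Hochberg adjustment over all tested genes. CPM values use the same scaling, and fold changes are given as log2 with standard errors.

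Replicate numbers occur in both groups. Same-numbered libraries were taken as pairs where each correlation of their deviations from the group means exceeded 0.1, and these were 0.621, 0.169 and 0.422. No label states such pairs, and PGE2 library 2 correlated more with vehicle library 3 (0.252). The paired fit adds the number as a block. The length correction takes, in each library, every gene's log2 CPM minus its mean over the 6 libraries. A lowess trend (span 0.3) of these deviations on the length of the longest transcript is added to the offset. Of the tested genes 99.4% had a length. Alternatives were other scalings and filters, DESeq2 1.42.0, limma-voom (limma 3.58.1), a stricter threshold, and each library or pair left out. On simulated data the fits recovered most changed genes where the simulation matched the fit, and the share of false calls was above the threshold, more so in the paired fit. Chi-square per degree of freedom between libraries of 1 group was at least 19.3, so no library duplicated another of its own group. Vehicle libraries were not compared with PGE2 libraries in this way. The members and lists were chosen with earlier results of these data known. The text may name all 36 members and, of each other list, up to 4 genes with the smallest p without pairing, or all of a list of under 9; Foxm1, Pi16 and genes overlapping a member were named after their values were seen. List genes were matched by symbol (252) or identifier (7).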

Additional observations from a re-analysis of the deposited data

How the results depend on the processing

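Of the 36 genes, those called numbered 16 in the paired fit, 16 with DESeq2 size factors in that fit (where 7.93% of all tested genes fell) and 16 with the length correction in that fit, against 0 without pairing; leaving out 1 library or 1 pair gave between 0 and 23, the former in every unpaired fit with 1 library left out (edgeR; at an unadjusted p under 0.05 these held 0 genes, or 6 without PGE2 library 1). Without pairing, 0 were called under any other scaling, filter or tool, by DESeq2 with 1 and by limma-voom with 0 at an unadjusted p under 0.05. The median log2 fold change lay between -0.72 and 0.10 with 1 library or pair left out, and kept its sign under every other alternative. Among all tested genes, the number called was 52, and 2189 in the paired fit, 2225 with DESeq2 size factors and 2549 with the length correction in that fit, 15 with the length correction alone, 285 with no filter, 829 by DESeq2, 13 by limma-voom and 0 at a threshold of 0.01, with 3049 at an unadjusted p under 0.05. With 1 library or pair left out the number ran from 0 (without vehicle library 2 or 3 or PGE2 library 2 or 3, with 1871, 3697, 1494 and 2597 at an unadjusted p under 0.05) to 5097 (paired, without pair 3). The cause was not tested. Genes near 0 changed sign: Mad2l1 was at -0.0058 with library totals alone and -0.017 by limma-voom, and Cenpa at -0.025 and -0.095, -0.075 in the paired fit, -0.082 with DESeq2 size factors there and -0.051 with the length correction there. Replicate 1 set the extremes: for 27 genes the log2 fold change changed sign when 1 library or pair was left out, and was lowest without PGE2 library 1 and highest without vehicle library 1. In that order it was -0.72 and 0.11 for Ccna2, -0.59 and 0.26 for Ccnb1, -0.56 and 0.19 for Ccnb2, -0.19 and 0.44 for Cdk1, -0.78 and 0.095 for Cdc25c, -0.53 and 0.28 for Aurka, -0.55 and 0.28 for Aurkb, -0.65 and 0.26 for Plk1, -0.54 and 0.34 for Birc5. It was -0.79 and 0.21 for Bub1, -0.58 and 0.28 for Ttk, -0.31 and 0.29 for Mad2l1, -0.45 and 0.34 for Cenpa, -0.69 and 0.19 for Ndc80, -0.75 and 0.072 for Nuf2, -0.80 and 0.0046 for Kif23, -0.80 and 0.0061 for Kif20b, -0.81 and 0.11 for Kif2c. It was -0.73 and 0.038 for Kif4, -0.72 and 0.098 for Tpx2, -0.36 and 0.28 for Nusap1, -0.57 and 0.17 for Prc1, -0.73 and 0.12 for Hmmr, -0.69 and 0.10 for Cdc20, -0.43 and 0.38 for Ube2c, -0.86 and 0.045 for Ect2 and -0.76 and 0.031 for Top2a. With 2 libraries left in a group, or 2 pairs, errors lean on the spread pooled over genes.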

Other observations

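Genes that act before G2 were also lower in part. The D-type cyclins carry mitogen signals into the cycle, and Ccnd1 stood at 469, 223 and 180.0 CPM in vehicle libraries 1, 2 and 3 and at 247, 121 and 93.2 CPM in PGE2 libraries 1, 2 and 3. It fell by 0.92 ± 0.070 on the log2 scale in the paired fit (edgeR adjusted p = 5.89e-05; 0.345 without pairing), more than any of the 36 mitosis genes, and was also highest in replicate 1 of each group. Ccnd2 fell by 0.39 and Cdk6, at 1.36 to 3.35 CPM, by 0.79, while Ccnd3, Cdk4, Cdk2, Ccne1 and Ccne2 did not pass, so 3 of these 8 genes fell and 0 rose, where 7.51% of all tested genes fell. With the length correction Cdk6 no longer passed (adjusted p = 0.0719).

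Of the 7 CDK inhibitor genes, which brake the cycle, 0 rose and 2 fell in the paired fit. Over all tested genes 6.91% rose and 7.51% fell, so 0 of 7 rising is near the share. Cdkn1c, which encodes p57, stood at 29.1, 41.2 and 53.2 CPM with vehicle and 19.1, 32.2 and 32.2 CPM with PGE2 in libraries 1 to 3 and changed by -0.56 ± 0.089, and Cdkn2b, which encodes p15, by -0.38 ± 0.087. Cdkn1a, the p53 target that encodes p21, was at -0.070 ± 0.083 and Cdkn1b, which encodes p27, at 0.093 ± 0.071, and neither passed. With the length correction Cdkn2a also fell (adjusted p = 0.0121), where 7.97% of all tested genes fell. Without pairing 0 of the 15 genes in these 2 lists passed.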
